A study of Mus musculus with 7 samples.

Results

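The comparison described here is between limb bud chromosomes that carry the inversion Inv1 and limb bud chromosomes that carry Inv1 together with a deletion named after CTCF (Inv1DelCTCF). It uses 2 of the 7 libraries of the series, taken by their titles, with 1 library on each side. Contacts were counted by capture Hi-C, in which chromatin is cut and religated so that pairs of loci lying close together in the nucleus are joined and read, after enrichment of a 10 Mb region of mouse chromosome 1 around Epha4. Both libraries came from fore- and hindlimb buds of E11.5 embryos whose titles also read Distal, with 10 embryos pooled for each, and both share the Inv1 inversion made with CRISPR/Cas9. The genotype label reads mutant for either library, and it states neither the extent of the deletion nor whether the embryos were homozygous. The cell type label reads G4 ESC for every library, limb buds included, and no expression was measured in these libraries, so the tissue was not checked against marker genes. WT limb buds and Inv1 embryonic stem cells (ESCs) served as background, with 1 library each. With single libraries no difference below has a replicate check and none was tested; all intervals are 95% intervals that cover counting error only.

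CTCF is a zinc finger protein that binds DNA in an oriented way and halts the cohesin complex as it extrudes chromatin loops. Clusters of bound CTCF lie at borders between topologically associating domains, within which loci meet more often than across them, and an anchor that halts cohesin on one side can appear as a stripe of raised contact on that side. Epha4 encodes an ephrin receptor tyrosine kinase, and its domain holds limb bud enhancers that a border separates from a gene-dense neighbourhood with the signalling genes Wnt6, Wnt10a and Ihh. An inversion that spans such a border turns the border around and carries enhancers to the neighbouring genes. Comparing Inv1DelCTCF with Inv1 addresses how far the contacts of the inverted chromosome depend on the deleted sequence.

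The maps are in mm9 and follow the order of the inverted chromosome. The inverted segment lies on chromosome 1 at 75.28 to 75.90 Mb. Its left 280 kb, at 75.28 to 75.56 Mb, is the part of the Epha4 domain that was moved and is called the moved part. To its left, across the left join, lie 3 gene-dense stretches that did not move. The nearest, at 75.13 to 75.28 Mb, holds 13 genes from Cnppd1 to Resp18, a gene of endocrine secretory granules. The next, at 74.93 to 75.13 Mb, holds 6 genes from Cryba2, a lens crystallin gene, to Slc23a3, with Ihh, a hedgehog ligand gene of growing cartilage, among them. The farthest, at 74.79 to 74.93 Mb, holds 4 genes from Wnt6 to Fev, with the Wnt ligand genes Wnt6 and Wnt10a. Genes were placed by their order in the deposited gene tables and by where the inversions break, not by coordinates. To the right of the moved part comes the border, which sits at 75.56 Mb in Inv1, then 340 kb of inverted gene-dense sequence up to 75.90 Mb, and then the rest of the Epha4 domain up to 77.51 Mb. The WT stripe anchor beside the border, at 75.64 Mb in WT, maps to 75.53 Mb on the inverted chromosome.

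Depth was alike. Inv1 held 3903613 read pairs and Inv1DelCTCF 3997390, and 2 bins of 10 kb were left out in each for few listed pairs. Of each 1000000 read ends, 31859 fell in the moved part in Inv1 and 31023 in Inv1DelCTCF. The mean contact at a given distance differed little between the maps, with ratios of Inv1DelCTCF to Inv1 of 0.955 to 1.08 at the 11 distances from 10 to 2000 kb that were read out. To the right of the border the Inv1DelCTCF map ran about 4 kb short of the Inv1 map, under the 10 kb of a bin. The start of this offset was placed only roughly, near 75.52 Mb. Contact is given below as observed over expected, the balanced contact divided by the mean at the same distance in the same map. Balancing gives every bin the same sum, so a bin with less contact on one side must have more elsewhere. Read pairs without balancing are not bound in this way and are given beside the balanced values.

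The map of the ratio between both libraries showed 2 blocks of opposite sign that meet at the border. Contact between the moved part and the gene-dense stretches to its left was lower in Inv1DelCTCF, most strongly in a band along the border itself. Contact of the moved part with the inverted gene-dense sequence and the rest of the Epha4 domain, to its right, was higher, in a broad block that began at the border.

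**Figure D1:**
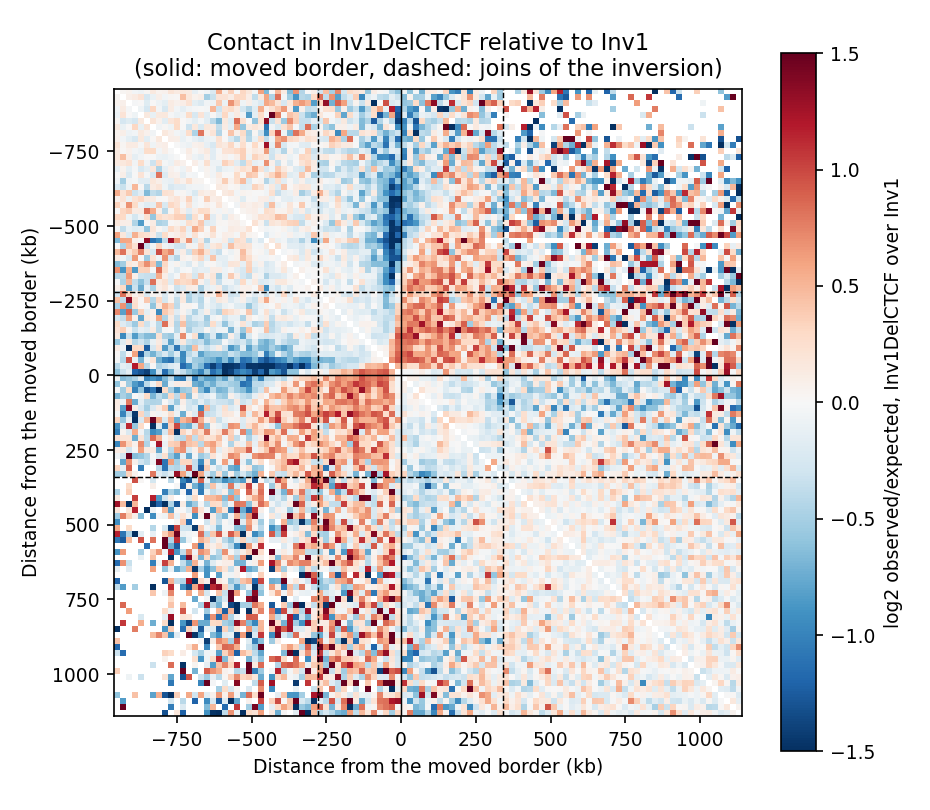
Each cell is the log2 of contact (observed over expected) in Inv1DelCTCF over that in Inv1, for a pair of 20 kb bins, with both axes in kb from the moved border. Blue is lower in Inv1DelCTCF and red higher, and white cells had no value. A blue band runs from the border (solid line) toward the gene-dense stretches beyond the left join (dashed line at -280 kb), and a mostly red block fills the quadrant between the moved part and the sequence to the right of the border.

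The anchor beside the border carried the strongest change. In Inv1 the 3 bins centred at 75.52 Mb met the gene-dense stretches at more than the mean for their distance, and in Inv1DelCTCF this excess was much smaller. The centre, beside the mapped anchor at 75.53 Mb, is the bin with the highest Inv1 stripe score there (defined below), a choice that favours Inv1. At 310 to 400 kb from the anchor, which spans much of the Cnppd1 to Resp18 stretch, observed over expected contact was 3.48 in Inv1 and 1.34 in Inv1DelCTCF, from 1791 and 640 read pairs, a log2 ratio of -1.38 ± 0.14 (95% half-width). At 410 to 500 kb it was 3.32 and 1.14, from 1050 and 353 read pairs, which was the lowest ratio of the 10 windows on that side at -1.54 ± 0.20. At 510 to 600 kb it was 3.19 and 1.34. These last windows, from 410 to 600 kb, fall in the Cryba2 to Slc23a3 stretch, the neighbourhood of Ihh, for the most part. At 610 to 800 kb, which covers the Wnt6 to Fev stretch and beyond, it was 1.29 and 0.798. Beyond the gene-dense stretches the maps were alike, with 0.607 and 0.591 at 810 to 1000 kb and 0.425 and 0.411 at 1010 to 1500 kb.

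Nearer to the anchor the difference shrank and then turned. At 210 to 300 kb observed over expected contact was 2.93 in Inv1 and 1.57 in Inv1DelCTCF, and at 110 to 200 kb 1.74 and 1.34. At 60 to 100 kb it was 1.12 and 1.19, a difference within the counting interval. At 20 to 50 kb it was 0.818 in Inv1 and 1.07 in Inv1DelCTCF, so that the anchor met the moved sequence directly beside it more often in Inv1DelCTCF. In Inv1, contact of the anchor thus rose above the mean with distance and peaked 400 kb away, while in Inv1DelCTCF it stayed between 1.07 and 1.57 in every window up to 600 kb.

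**Figure D2:**
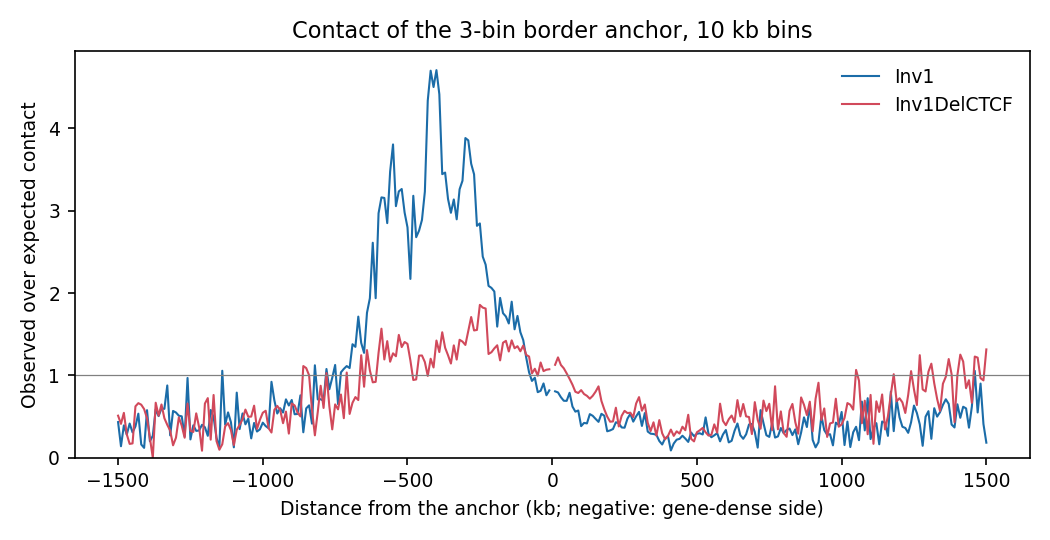
Observed over expected contact of the 3-bin border anchor with each 10 kb bin is plotted against distance from the anchor in kb, with the gene-dense side at negative distances, for Inv1 (blue) and Inv1DelCTCF (red); the grey line marks the mean contact at each distance. Inv1 reaches 4.70 about 400 kb to the left, where Inv1DelCTCF stands at 1.42, and to the right of the anchor Inv1DelCTCF lies above Inv1 in every window.

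Single bins on the gene-dense side are given here as examples from the same windows. They were picked as the highest in Inv1 or the largest change, which favours a fall, so they add no separate evidence. The bin highest with the anchor in Inv1 between 310 and 600 kb started at 75.12 Mb and was the last bin of the Cryba2 to Slc23a3 stretch. It stood at 4.70 in Inv1, from 158 read pairs, and at 1.42 in Inv1DelCTCF, from 42. The largest fall in that range was at 75.10 Mb, where contact fell by 3.50 from 4.70 in Inv1. Between 100 and 300 kb the highest bin in Inv1, which also had the largest fall, started at 75.22 Mb, with 3.88 in Inv1 and 1.37 in Inv1DelCTCF. Between 610 and 1000 kb it was at 74.90 Mb, in the Wnt6 to Fev stretch, with 2.61 and 0.916. Contact was lower in Inv1DelCTCF at 21 of 21 bins in the first range, 30 of 30 in the middle one and 29 of 40 in the farthest. No count at anchors outside the segment is given beside these. The 29 of 40 in particular therefore cannot be set against a background. Even the bins that came nearest to a rise in the first and middle ranges, at 75.42 and 75.03 Mb, were lower, by 0.065 and 0.99. In the farthest range 1 bin outside the gene-dense stretches, at 74.66 Mb, stood at 0.310 in Inv1 and 1.11 in Inv1DelCTCF, from 5 and 17 read pairs.

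On its other side the anchor gained contact in every window. At 20 to 50 kb, which reaches across the border, observed over expected contact was 0.728 in Inv1 and 1.11 in Inv1DelCTCF, a log2 ratio of 0.61 ± 0.11. At 110 to 200 kb, inside the inverted gene-dense sequence, it was 0.449 and 0.689. At 1010 to 1500 kb, in the rest of the Epha4 domain, it was 0.468 and 0.812, from 329 and 550 read pairs, with a log2 ratio of 0.80 ± 0.21. The higher contact was therefore not limited to the sequence next to the border. The ratio was within its counting interval in 1 of these windows, at 510 to 600 kb (0.33 ± 0.38).

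The stripe score sets the anchor against its own flanks, as the log2 ratio of its contact over 100 to 1500 kb on one side to that of the bins 3 to 8 places away. Toward the gene-dense side the highest score near the mapped anchor was 0.61 ± 0.023 (counting standard error) in Inv1, at 75.52 Mb, and 0.097 ± 0.031 in Inv1DelCTCF, at 75.54 Mb. Over 396 bins left of the inverted segment and 478 right of it, the same difference between the maps had SDs of 0.055 and 0.074 and did not fall below -0.30. In Inv1DelCTCF the highest score in the 16 bins from 75.47 to 75.62 Mb was 0.11, at 75.56 Mb, so none of these bins scored near the Inv1 anchor. Some flanking bins lie beyond the border, so this score alone cannot separate a stripe from a border.

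The opposite score changed in a more complex way. Bins at 75.51 and 75.52 Mb had little contact toward the Epha4 side in Inv1 relative to their flanks, with scores of -0.65 and -0.64, and in Inv1DelCTCF these were -0.12 and -0.023. The differences of 0.53 and 0.61 lay above the highest value among the bins outside the segment, 0.30. Just right of the border, the bins at 75.57, 75.58 and 75.59 Mb had a stripe toward the Epha4 side in Inv1, with scores of 0.44, 0.43 and 0.41. In Inv1DelCTCF these were 0.21, 0.22 and 0.18. Differences of this size, -0.21 to -0.24, also occurred right of the segment, where the lowest difference was -0.37. They did not occur left of it, where the lowest was -0.16. The highest score toward the Epha4 side within 20 kb of the mapped anchor was 0.16 in Inv1 and 0.053 in Inv1DelCTCF, and the sign of that difference turned when the same bin was read in both maps (0.38), without balancing (0.051) and with the Inv1DelCTCF bin 10 kb further right (0.0042), so it has no settled direction.

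The border itself became shallower. The insulation value compares, on the log2 scale, the contact across each bin in squares of 200 kb with the average over the map, so a border is a dip. In Inv1 the dip had a depth of 0.96 at 75.56 Mb, and in Inv1DelCTCF 0.37 at 75.58 Mb. Squares of 100 kb gave depths of 1.35 and 0.805. Squares of 300 kb gave 0.56 and 0.100, the latter under the 0.2 at which a border was called. The Inv1DelCTCF depth was thus above that limit with squares of 100 and 200 kb and under it with squares of 300 kb. The insulation value was higher in Inv1DelCTCF by over 0.1 from 75.47 to 75.62 Mb, with the largest rise at 75.53 Mb, the mapped anchor, from -0.88 to -0.15. In the left of the moved part it was lower, with the largest fall at 75.34 Mb, from 0.66 to 0.38. Near the right join it was lower as well, at 75.82 Mb with -0.52 in Inv1 and -0.72 in Inv1DelCTCF. Over bins outside the segment the difference had an SD of 0.024 on the left and 0.039 on the right.

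**Figure D3:**
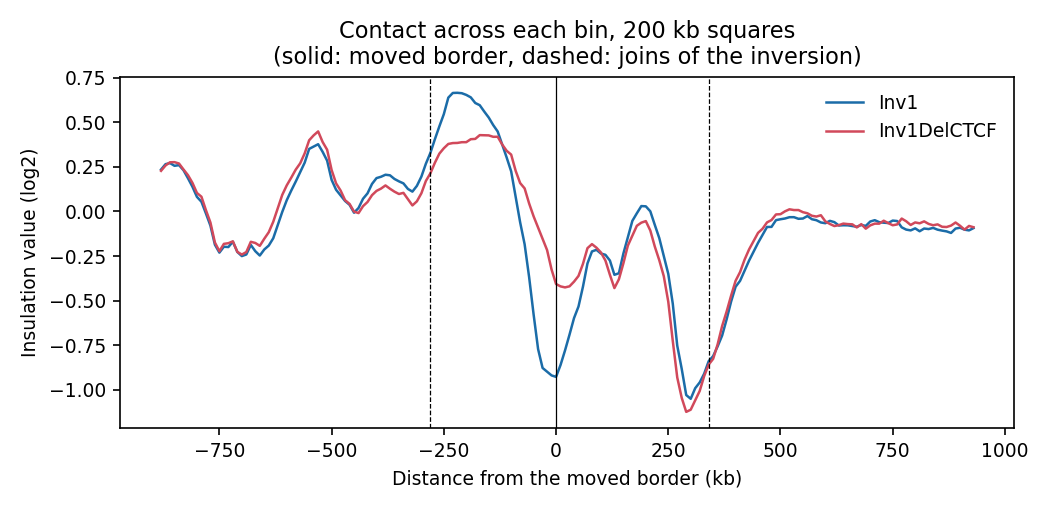
Insulation values (log2, 200 kb squares) are plotted against distance from the moved border in kb for Inv1 (blue) and Inv1DelCTCF (red), with the border as a solid line and the joins of the inversion dashed. The dip at the border is shallower in Inv1DelCTCF, the plateau over the moved part is lower, and the dip near the right join is of like depth in both.

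Neighbouring borders differed less between the maps. The border near the right join had a depth of 1.02 at 75.86 Mb in Inv1 and 1.07 at 75.85 Mb in Inv1DelCTCF. A smaller one inside the inverted gene-dense sequence, at 75.69 Mb in both maps, had 0.39 and 0.38. In the gene-dense stretches, the borders at 75.11 and 75.24 Mb had 0.38 and 0.27 in Inv1, and 0.44 and 0.39 in Inv1DelCTCF. Over 200 kb away from the segment each map had 18 borders, and 16 of those of Inv1 had a counterpart within 30 kb, with depths that differed by -0.054 to 0.088. The difference at 75.24 Mb, 0.13, lay outside that range.

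The moved part as a whole met the gene-dense stretches less in Inv1DelCTCF. Observed over expected contact with all 3 stretches together was 1.44 in Inv1, from 40657 read pairs, and 1.04 in Inv1DelCTCF, from 31230, a log2 ratio of -0.47 ± 0.027. Without balancing, 10415 of each 1000000 read pairs joined the moved part to these stretches in Inv1 and 7813 in Inv1DelCTCF, a ratio of 0.750. As a share of all contacts of the moved part this was 19.97% and 15.7%.

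The 3 stretches differed in how much they lost. The Cryba2 to Slc23a3 stretch, with Ihh, had the largest loss: its share of the contacts of the moved part was 7.40% in Inv1 and 5.26% in Inv1DelCTCF, and its log2 ratio was -0.58 ± 0.045. The Cnppd1 to Resp18 stretch, next to the join, went from 10.3% to 8.64% (-0.39 ± 0.034), and the Wnt6 to Fev stretch, the farthest, from 2.32% to 1.84% (-0.36 ± 0.065). The counting interval of the middle stretch did not overlap those of its neighbours, and those of the nearest and the farthest overlapped. These intervals do not cover differences between libraries, so the order of the 3 stretches was not tested. In WT, where the same sequences lie on opposite sides of the border, the shares were 0.678%, 0.544% and 0.418%. Measured from these WT levels, Inv1DelCTCF retained 68.2% of the Inv1 excess at the Cryba2 to Slc23a3 stretch, 83.3% at Cnppd1 to Resp18 and 74.9% at Wnt6 to Fev. Shares are not corrected for distance, and in WT the inverted gene-dense sequence lies between the moved part and these stretches. The excess over WT therefore also holds the shorter distance, which both inverted maps share, and the 2 parts cannot be told apart here. The 1000 kb beyond the Wnt6 to Fev stretch had 3.79% and 3.56% (-0.091 ± 0.055), and the far left of the map did not differ beyond counting error (0.0037 ± 0.067).

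By distance from the left join, the log2 ratio was -0.34 ± 0.038 in the first 100 kb and lowest in the next, at -0.61 ± 0.065. It was -0.53, -0.49 and -0.31 in the 3 steps that followed, up to 500 kb. At 500 to 600 kb, beyond the gene-dense stretches, it was still -0.26 ± 0.12. The interval included 0 at 600 to 800 kb and at 900 to 1000 kb, while at 800 to 900 kb the ratio was -0.22 ± 0.16. Of the 49 bins of 10 kb in the gene-dense stretches, 49 had less contact with the moved part in Inv1DelCTCF, and 7 were lower by over 1.5-fold. Beside blocks of the same length outside the segment, 0.0707% of 1415 bins were lower by that much. At 1.2-fold, 45 of the 49 bins were lower, against 2.9% of those outside. The median log2 ratio of the bins outside was 0.0069, with an SD of 0.13. All 49 bins were read against the same moved part, so they are not separate observations. The lowest ratio was at 75.10 Mb, in the Cryba2 to Slc23a3 stretch (-0.76), and the weakest at 74.83 Mb, in the Wnt6 to Fev stretch (-0.15).

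The loss was graded along the moved part. In steps of 40 kb from the left join to the border, the log2 ratio of its contact with the 3 stretches was -0.054, -0.077, -0.14, -0.15, -0.37, -0.70 and -1.15. The first step, at 75.28 to 75.32 Mb, had 0.977 in Inv1 and 0.942 in Inv1DelCTCF, a difference within its counting interval. The last, at 75.52 to 75.56 Mb, had 2.69 and 1.21. In Inv1 contact with the gene-dense stretches thus rose toward the border from 0.977 to 2.69, and in Inv1DelCTCF it stayed between 0.938 and 1.21 along the whole moved part.

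**Figure D4:**
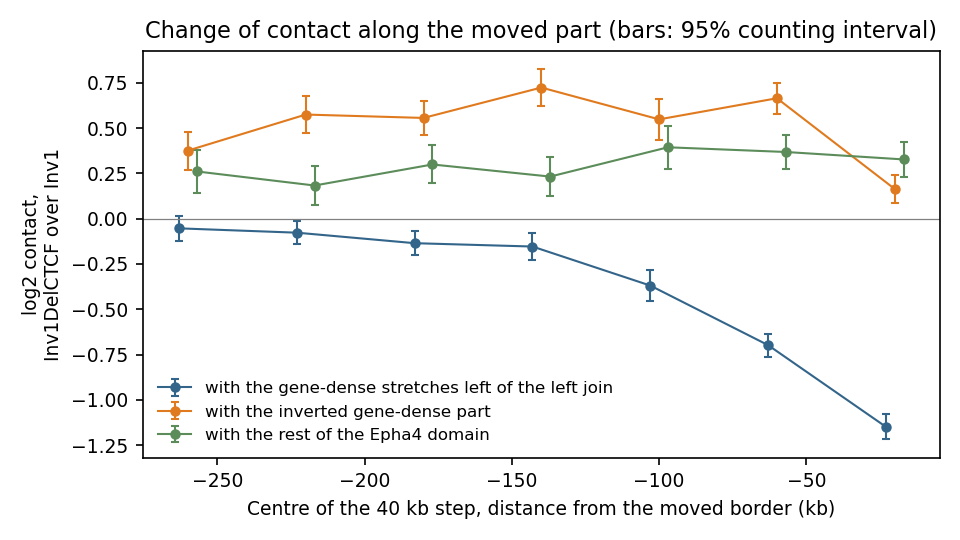
The log2 ratio of contact, Inv1DelCTCF over Inv1, is plotted for each 40 kb step of the moved part against its distance from the moved border in kb, with 95% counting intervals; points are offset sideways by 3 kb for legibility. Contact with the gene-dense stretches (blue) falls from -0.054 at the left join to -1.15 at the border, while contact with the inverted gene-dense sequence (orange) and with the rest of the Epha4 domain (green) is above 0 in all 7 steps.

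The grade was steepest toward the Cryba2 to Slc23a3 stretch. In the last step its observed over expected contact was 3.39 in Inv1 and 1.24 in Inv1DelCTCF, from 2980 and 1047 read pairs, a log2 ratio of -1.45 ± 0.11. With Cnppd1 to Resp18 the last step had 2.83 and 1.45 (-0.97 ± 0.092), and with Wnt6 to Fev 1.53 and 0.927 (-0.72 ± 0.17). The strip of about 80 kb before the border therefore held nearly all of the large changes on this side. Among squares of 40 kb by 40 kb with enough reads between the moved part and the stretches, 22 of 83 were lower by over 1.5-fold and none was higher by that much, and 21 of the 22 lay in those 80 kb. Outside the segment 0.531% of 4523 squares were lower by over 1.5-fold and 0.509% higher. The lowest square joined 75.52 to 75.56 Mb with the 40 kb from 75.08 Mb, at 4.19 in Inv1 and 1.11 in Inv1DelCTCF.

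Across the border the moved part gained. Observed over expected contact with the inverted gene-dense sequence was 0.474 in Inv1, from 14647 read pairs, and 0.670 in Inv1DelCTCF, from 20129, a log2 ratio of 0.50 ± 0.037. The value stayed below 1 in Inv1DelCTCF, so both sides still met less than the mean for their distance. As a share of the contacts of the moved part it was 6.36% and 8.82%, against 4.68% in WT. The WT share is not a like baseline, because shares within a map trade off against each other. In WT 33.5% of these contacts went to the rest of the Epha4 domain, against 5.66% in Inv1. Of the 55 squares between these parts, 30 were higher by over 1.5-fold and none was lower by that much. The lowest squares, which joined the 40 kb next to the left join with those from 75.72 and 75.84 Mb, had ratios of -0.18 and -0.13.

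This gain differed in shape from the loss. Along the moved part the log2 ratio was 0.38 at the left join and 0.55 to 0.72 in the 5 steps that followed, and then 0.16 ± 0.076 in the last step before the border. The step with the largest loss on the left thus had the smallest gain across the border. Seen from the other side, the gain was 0.62 ± 0.068 in the 40 kb of inverted gene-dense sequence next to the border. It was 0.29 ± 0.17 at 280 to 320 kb from the border. It did not fall steadily between these, with 0.58, 0.53, 0.65, 0.36, 0.34 and 0.47 in the steps from 40 to 280 kb. The square with the highest ratio joined 75.48 to 75.52 Mb with 75.56 to 75.60 Mb, at 0.512 in Inv1 and 0.956 in Inv1DelCTCF.

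The gain went on into the rest of the Epha4 domain, from which the inversion had separated the moved part. Observed over expected contact was 0.632 in Inv1, from 13060 read pairs, and 0.775 in Inv1DelCTCF, from 16404, a log2 ratio of 0.29 ± 0.040. The share of contacts was 5.66% and 6.99%, against 33.5% in WT. Along the moved part the ratio lay between 0.18 and 0.39 with no grade toward the border as strong as that on the left. With the stretch beyond, at 77.51 to 78.48 Mb, the ratio was 0.18 ± 0.057, and in the 40 kb next to the left join it was -0.12 ± 0.16. Stretches that did not move had ratios of like size with that same stretch, 0.21 ± 0.092 for Cnppd1 to Resp18 and 0.12 ± 0.085 for Cryba2 to Slc23a3. With the far right of the map the ratio of the moved part was 0.055 ± 0.081, an interval that included 0.

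By distance to the right of the border the log2 ratio was 0.60 ± 0.047 in the first 100 kb, 0.51 and 0.40 in the next steps, and between 0.23 and 0.31 in each of the 7 steps from 300 to 1000 kb. Of the 49 bins nearest to the border on the right, 1 was below 0, at 75.95 Mb, and 10 were higher by over 1.5-fold, against 0.141% of 1415 bins beside blocks outside the segment. At 1.2-fold, 35 of the 49 were higher, against 2.83% of those outside. The median log2 ratio of those outside was 0.0087, with an SD of 0.14. These 49 bins too share the moved part and are not separate observations. The highest of the 49 was at 75.68 Mb (0.89). Without balancing, 7098 of each 1000000 read pairs joined the moved part to the sequence from the border to 77.51 Mb in Inv1 and 9139 in Inv1DelCTCF, a ratio of 1.29.

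Within itself the moved part had 57.07% of its contacts in Inv1 and 57.1% in Inv1DelCTCF, while its observed over expected contact there was 1.30 and 1.25, a log2 ratio of -0.063 ± 0.018. The share with the left stretches fell by 4.23 percentage points and that with the sequence to the right, up to 77.51 Mb, was 3.79 points higher. The balance between right and left can be read per bin as the log2 ratio of contact within 500 kb to the right over that to the left. Its median over the 28 bins of the moved part was -0.42 in Inv1 and -0.22 in Inv1DelCTCF, and it was higher in Inv1DelCTCF in 26 of the 28. The largest change was at 75.51 Mb, beside the anchor, where it went from -2.07 to -0.64. In the 34 bins of the inverted gene-dense sequence it moved the other way, from a median of 0.068 to -0.29, and was higher in 8. Outside the segment it was higher in 161 of 318 bins on the left and 197 of 397 on the right. Differences there ran from -0.21 to 0.31 on the left and from -0.66 to 0.87 on the right, where the maps are offset. Bins of the inverted gene-dense sequence, with differences of -0.58 to 0.46, all lay within the range on the right. Their extremes lay outside that on the left. The largest change of the moved part, 1.43, lay outside both ranges.

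The inverted gene-dense sequence met its former neighbours in a new pattern. In WT it adjoins the Cnppd1 to Resp18 stretch, and the inversion put the moved part between them. Observed over expected contact between both was 0.801 in Inv1 and 1.06 in Inv1DelCTCF, a log2 ratio of 0.40 ± 0.051, and the ratio was above 0 in all 8 steps of 40 kb (0.16 to 0.59). Its contact with the farther stretches did not rise in the same way. With Cryba2 to Slc23a3 the ratio was -0.045 ± 0.056 and with Wnt6 to Fev -0.14 ± 0.074. In the 40 kb next to the border these were -0.60 ± 0.12 and -0.55 ± 0.17. The following 40 kb had -0.28 ± 0.12 and -0.33 ± 0.17, and the step after that 0.061 ± 0.14 and -0.24 ± 0.18. The band of lower contact with the Ihh and Wnt6 neighbourhoods thus reached across the border by at least 80 kb. From 120 kb beyond the border the ratio with Cryba2 to Slc23a3 was above 0 in each of the 5 steps (0.074 to 0.35), with intervals that included 0 in 1 of them.

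Other contacts that did not involve the moved part had ratios of up to 0.21 in size, not all of them within counting error. Cnppd1 to Resp18 had a log2 ratio of 0.14 ± 0.067 with the rest of the Epha4 domain, beside the 0.21 with the stretch beyond it. The inverted gene-dense sequence had -0.17 ± 0.057 with the 1000 kb beyond the Wnt6 to Fev stretch. The inverted gene-dense sequence and the rest of the Epha4 domain had 1.42 in Inv1 and 1.40 in Inv1DelCTCF (-0.026 ± 0.021). That mean joins opposite signs. In steps of 40 kb from the border on, the log2 ratio was -0.11, -0.16, -0.16, -0.0063, -0.17, 0.038, 0.084 and 0.048. The rest of the Epha4 domain met itself at 1.54 and 1.55. Among the gene-dense stretches, Cnppd1 to Resp18 met Cryba2 to Slc23a3 at 1.05 and 1.02, and Wnt6 to Fev at 0.768 and 0.766. Cryba2 to Slc23a3 met Wnt6 to Fev at 0.962 and 1.04, a log2 ratio of 0.11 ± 0.052.

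The coordinates of both maps did not match over their whole length. Read pairs per bin of Inv1DelCTCF followed those of Inv1 with no offset in all 5 windows left of the anchor, where they matched 0.983 to 0.995 of the variance. To the right of the border the best match over 540 bins came with an offset of 4 kb, at 0.766 against 0.627 with none, and each of the 6 windows there had its best match at 2 to 5 kb. Inv1 ESC, which carries the inversion without the deletion, matched Inv1 best at 0 kb on the same side (0.932). The best start of the offset was about 75.52 Mb, with starts from 75.47 to 75.58 Mb matching nearly as well, a range that holds the anchor. Within the inverted segment the best start matched 0.802 of the variance, against 0.758 with no offset anywhere. Only starts around the anchor and the border were tried, so the start is placed only roughly. Read backwards within the inverted segment, the map of WT matched Inv1DelCTCF with 4 kb less sequence, and that of Inv1 with 0.5 kb less. The map of Inv1DelCTCF is thus short by about 4 kb to the right of the border, and whether this is the deleted sequence was not tested.

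**Figure D5:**
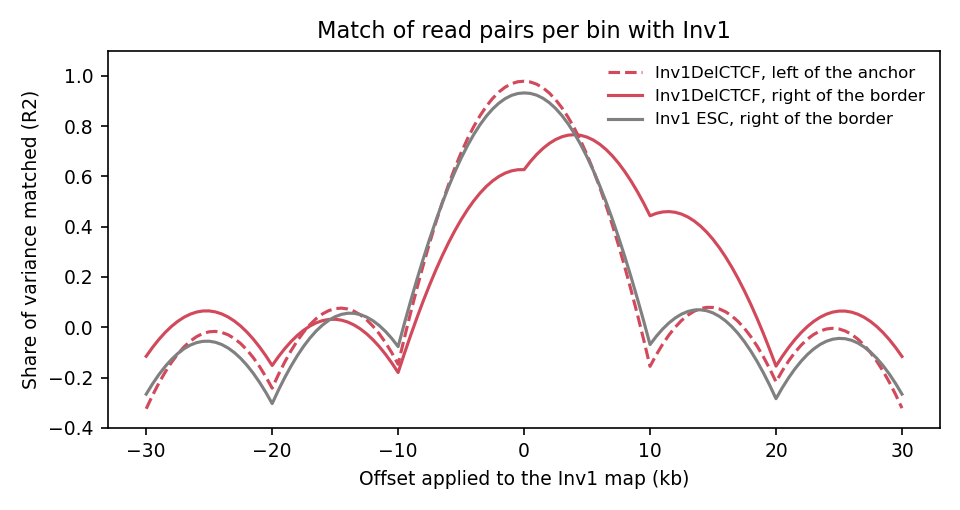
The share of variance in read pairs per 10 kb bin that Inv1 matches is plotted against the offset applied to the Inv1 map in kb, for Inv1DelCTCF left of the anchor (dashed red), Inv1DelCTCF right of the border (solid red) and Inv1 ESC right of the border (grey). The dashed red and grey curves peak at 0 kb and the solid red curve at 4 kb.

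Values above are in the coordinates of the files. When the Inv1 map was resampled to leave out 4 kb at 75.52 Mb, an alternative chosen after seeing the data, the log2 ratio of the moved part was -0.45 with the gene-dense stretches, 0.51 across the border and 0.28 with the rest of the Epha4 domain. The stripe toward the gene-dense side then differed by -0.51 and the depth of the border by -0.59.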

How the data were processed

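Capture Hi-C maps were available for 7 libraries with 1 library per group, grouped by title. The deposited maps hold contact signal between 10 kb bins of mm9, to which the authors applied Knight-Ruiz balancing and a filter at a mapping quality of 30, per the file names. Bowtie2 2.2.6 and Juicer are named in the submitters' processing notes, with no role given. Gene tables and the Inv2 to Inv4 maps, deposited by the authors as scaled score values, were used only to place genes and breakpoints. A gene table of Inv1DelCTCF was not analysed here.

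Balanced signal equals whole read pairs multiplied by a factor per bin. These factors were fitted, and 100% of values under 20 read pairs came within 0.1 of a whole number. Poisson errors of the read pairs gave the intervals. The wild type map held 5155259 read pairs and that of Inv1 ESC 4305909. Bins were dropped where they had fewer than 25% as many listed pairs as the median bin. Borders were minima of the insulation value at least 0.2 deep within 300 kb, and squares needed 50 read pairs. Offsets were found by shifting the read pairs per bin of Inv1 against those of the other map. With 1 library per group no test was run. The scripts were tested on simulated data. Python 3.11.15, NumPy 2.4.6, SciPy 1.17.1 and matplotlib 3.10.9 were used.

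Genes were named by place (the first and last gene of each stretch, and Wnt6, Wnt10a and Ihh), and single bins as the highest in Inv1 per distance window or the largest fall and rise. Members, stretches and lists were chosen with earlier results of these data known. Bins, steps and squares named otherwise were chosen after their values were seen. Alternatives changed the expected contact, balancing, low bins, positions, anchor, flanks, square size, nearest pairs and fold.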

Additional observations from a re-analysis of the deposited data

How the results depend on the processing

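The 6 contact results were computed under 48 alternatives, and 33 gave a value within the counting interval of the reported one. No direction changed except that of the stripe toward the rest of the Epha4 domain (-0.11), which was 0.051 without balancing, 0.0042 with the Inv1DelCTCF limits 10 kb to the right and 0.38 with the same bin in both maps. The stripe toward the gene-dense side (-0.52) was -0.42 without balancing, -0.59 with an anchor of 1 bin and -0.76 against all bins at the same distance. The difference in border depth (-0.59) was -0.65 without balancing, -0.69 with the limits 10 kb to the left and -0.46 with squares of 300 kb, where the Inv1DelCTCF depth of 0.100 was no longer that of a called border. With squares of 100 kb it was -0.54, and the Inv1DelCTCF depth was 0.805. For contact between the moved part and the gene-dense stretches (-0.47), the log2 ratio was -0.54 without balancing, and -0.51 and -0.43 with the limits 10 kb to the left and right. Across the border (0.50) it was 0.44, 0.58 and 0.43 under the same settings. With the rest of the Epha4 domain it ranged from 0.26 to 0.32. Of the 49 bins in the gene-dense stretches, 7 were lower by over 1.5-fold, 45 by over 1.2-fold and 0 by over 2-fold, and 7 with the resampled Inv1 map. The cause of these differences was not tested. No paired analysis was possible because each group had 1 library. Bins of 10 kb limit positions to about 1 bin, and beyond 600 kb each window of the anchor rests on 141 to 733 read pairs in Inv1.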

Other observations

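Inv1 ESC, which carries the inversion without the deletion in cultured pluripotent cells, gave some values near those of Inv1DelCTCF and others near those of Inv1. Contact of the moved part across the border stood at 0.656 in ESCs, 0.474 in Inv1 limb buds and 0.670 in Inv1DelCTCF limb buds, as shares of 9.23%, 6.36% and 8.82%. With the Wnt6 to Fev stretch the values were 0.751, 1.02 and 0.793. With the Cryba2 to Slc23a3 stretch, where Ihh lies, ESCs were nearer to Inv1, at 1.44 against 1.61 and 1.08, and likewise with Cnppd1 to Resp18, at 1.47 against 1.59 and 1.22. The inverted gene-dense sequence met the Wnt6 to Fev stretch at 1.64 in ESCs, above both limb bud maps (0.839 in Inv1 and 0.761 in Inv1DelCTCF). Its contact with the rest of the Epha4 domain was 0.953 in ESCs, against 1.42 and 1.40. These are single libraries of different cells, and the differences were not tested.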
